A study of Mus musculus with 18 samples.

Results

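The genes described are 8 genes of the mouse tail bud. Of these, Wnt3a, Wnt5a, Wnt5b, Rspo3, Fgf8, Fgf17 and Fgf4 are signalling genes, and Nkx1-2 is a transcription factor gene. They were taken by symbol from the 31053 mouse genes of the count tables, with earlier results of these data known. All 8 were present in all 18 libraries, and all 8 passed the filter on low counts both over the whole embryo and in the posterior cells described below. The study asked what loss of each DNA methyltransferase does to cell fate in the mouse embryo. Each library holds the cells of 1 dissociated embryo at E8.5, counted with 3' single-cell RNA-seq as unique molecular identifiers (UMIs), so that 1 UMI stands for 1 captured transcript. By their labels, 7 libraries are from wild-type embryos (WT) and the others from embryos null for 1 methyltransferase, 3 for Dnmt1 (Dnmt1 KO), 4 for Dnmt3a (Dnmt3a KO) and 4 for Dnmt3b (Dnmt3b KO, where 2 libraries share most of their cell barcodes and were counted as 1 embryo). All embryos were on the 129S4/SvJae strain and came from matings of mice heterozygous for a null allele of the gene in question, so that the mutation is constitutive and present in every cell, the extraembryonic tissues included. Matching WT embryos came from such matings, and genotypes had been called by PCR on the ectoplacental cone.

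Wnt ligands are secreted lipid-modified proteins that bind Frizzled receptors. Wnt3a signals mainly through beta-catenin, whereas Wnt5a and Wnt5b act mainly on cell shape and movement. R-spondins such as Rspo3 are secreted agonists that keep Wnt receptors at the cell surface. Fgf8, Fgf4 and Fgf17 are secreted Fgf ligands that act through tyrosine kinase receptors and the MAP kinase pathway. In the tail bud both pathways keep a pool of posterior progenitors, which holds neuromesodermal progenitors and caudal epiblast, from differentiating while the body axis grows, and the presomitic mesoderm that leaves this pool is segmented into somites as the Fgf and Wnt level falls towards the anterior. Nkx1-2 is a homeobox transcription factor of the caudal epiblast and is a marker of the progenitor pool. Dnmt1 maintains CpG methylation after each round of replication, whereas Dnmt3a and Dnmt3b set methylation de novo.

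On mm10, the 8 genes lie on 6 chromosomes. Wnt3a is at chr11:59248033-59290752 on the minus strand, Wnt5a at chr14:28504750-28527448 on the plus strand, Wnt5b at chr6:119432531-119544347 on the minus strand and Rspo3 at chr10:29452416-29535867 on the minus strand. Fgf8 is at chr19:45736798-45742915 on the minus strand, Fgf17 at chr14:70636203-70642268 on the minus strand, Fgf4 at chr7:144847367-144865243 on the plus strand and Nkx1-2 at chr7:132594878-132599637 on the minus strand. All are protein-coding. Rspo3 and Nkx1-2 overlap another annotated gene on their own strand, Gm20276 and Fgfr2 respectively, and reads in the overlaps cannot be assigned with certainty.

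Promoters are shown because the mutants lack enzymes that methylate CpG dinucleotides, the letters set in capitals here. RefSeq entries of GRCm38.p6 were matched for 4 of the 8 genes (Wnt3a, Wnt5b, Fgf4 and Nkx1-2), and each line gives the 250 bases before the start of the first entry, 5′ to 3′ on the strand of the gene. Positions are chr11:59290752-59291001 (minus) for Wnt3a, chr6:119544348-119544597 (minus) for Wnt5b, chr7:132599638-132599887 (minus) for Nkx1-2 and chr7:144861136-144861385 (plus) for Fgf4. Methylation itself was not measured in these libraries.
Wnt3a: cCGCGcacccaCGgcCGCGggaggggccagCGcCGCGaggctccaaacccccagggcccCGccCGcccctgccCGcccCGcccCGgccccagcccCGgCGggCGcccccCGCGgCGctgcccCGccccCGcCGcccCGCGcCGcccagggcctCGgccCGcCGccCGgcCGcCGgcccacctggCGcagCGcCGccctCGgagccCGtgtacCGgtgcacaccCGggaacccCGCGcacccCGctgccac
Wnt5b: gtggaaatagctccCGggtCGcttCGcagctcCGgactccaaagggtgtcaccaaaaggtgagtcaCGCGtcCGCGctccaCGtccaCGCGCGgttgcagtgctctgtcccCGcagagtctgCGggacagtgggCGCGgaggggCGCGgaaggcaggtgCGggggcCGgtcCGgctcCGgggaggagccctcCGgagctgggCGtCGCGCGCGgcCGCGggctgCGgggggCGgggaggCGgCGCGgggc
Nkx1-2: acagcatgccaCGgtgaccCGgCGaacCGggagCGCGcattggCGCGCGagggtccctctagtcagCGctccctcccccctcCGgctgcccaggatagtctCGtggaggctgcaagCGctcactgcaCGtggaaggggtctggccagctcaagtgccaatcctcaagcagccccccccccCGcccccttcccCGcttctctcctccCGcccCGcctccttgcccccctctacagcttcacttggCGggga
Fgf4: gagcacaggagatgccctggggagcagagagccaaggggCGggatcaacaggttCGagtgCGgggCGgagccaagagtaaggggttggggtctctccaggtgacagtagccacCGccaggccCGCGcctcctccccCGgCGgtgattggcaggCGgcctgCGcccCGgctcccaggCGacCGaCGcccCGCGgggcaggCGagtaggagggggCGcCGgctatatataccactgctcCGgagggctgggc

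All 4 windows were rich in CpG. The Wnt3a window held 41 CpG, more than 98.9% of the 32851 promoter windows of the same length, and the Wnt5b window held 35, more than 97.0% of them. Fgf4 held 21 and Nkx1-2 held 19, above 83.7% and 80.3% of windows, against a median of 6 over all windows. CTTTGAT and CTTTGAA, the forms of the TCF/LEF motif searched, TCACACC for T-box factors and TTTATGG for Cdx factors were looked for on both strands. These letters were in none of the 4 windows shown, while they occur in 3.21%, 4.46%, 3.33% and 2.43% of all windows respectively. Wnt5b has 2 further entries at downstream starts, with 4 and 7 CpG, and the last of these held CTTTGAT and TTTATGG.

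Of 162336 barcodes, 107980 passed the filters and were kept as cells, with 1361 to 12595 cells and 36236826 to 228214679 UMIs per library and a median of 3605 to 60255 UMIs per cell. Dnmt1 itself was lower in all 3 Dnmt1 KO libraries (14.8 to 15.6 CPM, or UMIs per 1000000 UMIs) than in any WT library (83.0 to 114.9 CPM), and Dnmt3a was lower in the 4 Dnmt3a KO libraries (7.39 to 11.7 CPM) than in WT (23.1 to 34.8 CPM). Dnmt3b was at 54.5 to 68.4 CPM in Dnmt3b KO and at 35.7 to 87.2 CPM in WT, and a 3' tag outside the deleted part of a gene checks nothing. By label, Dnmt3b KO 11 and 12 are Dnmt3b mutants, yet they held Dnmt3a at 15 and 7.54 CPM, below every WT library, whereas Dnmt3b KO 1 and 2 held 31.9 CPM each. Dnmt3b KO 1 and 2 shared 12249 barcodes, 86.5% of the first and 79.3% of the second, while no other pair of libraries shared more than 133. Among 6637 shared barcodes with at least 5000 UMIs in both, 3293 had more in KO 1 (median ratio 1.88). The other 3344 had more in KO 2 (median ratio 2.15). Why barcodes are shared was not tested, and a barcode kept in both libraries counts in each. The 2 libraries were therefore summed and counted as 1 embryo, and fits of Dnmt3b KO against WT over the whole embryo and in the pooled posterior class are also given without KO 11 and 12. The shares of cells, the contrasts between mutants and the tests by class rest on all Dnmt3b KO libraries. Y-linked transcripts were found in all Dnmt1 KO and Dnmt3a KO embryos and in all Dnmt3b KO embryos but KO 12, against 1 of 7 WT embryos, so sex differs with group and a fit with a Y-linked covariate is given where it changes a call.

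Cells were grouped by clustering from which the 8 genes and the other Wnt, R-spondin and Fgf genes were left out, so their level in a class was not used to make it. Clusters were named from marker genes, with posterior progenitor-like cells named from T, Cdx1, Cdx2, Cdx4, Hes3, Epha5, Sp8 and Grhl3, and presomitic mesoderm-like cells from Tbx6, Msgn1, Dll1, Dll3, Hes7, Lfng, Ripply2, Mesp2 and Cited1. Among these naming markers, whose levels are therefore a description, Cdx4 averaged 440 CPM and T 132 CPM in the progenitor-like cells of WT, and Dll3 averaged 149 CPM and Tbx6 90.7 CPM in presomitic cells. The 2 classes together are called the pooled posterior class, with 6154 cells over the 18 libraries and 83 to 722 cells in each.

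In WT embryos the 8 genes fell into a progenitor set and a presomitic set, with Wnt5a the member least tied to the tail bud. Wnt3a averaged 29.9 ± 7.48 CPM (SD, n = 7) in progenitor-like cells and 14.6 ± 3.79 CPM in presomitic cells. Wnt5b averaged 81.9 ± 12.1 and 41.2 ± 4.19 CPM, Fgf8 averaged 359 ± 82.4 and 154.5 ± 29.7 CPM, and Fgf17 averaged 110.2 ± 32.06 and 44.8 ± 13.6 CPM. Nkx1-2, at 143.7 ± 48.8 and 13.9 ± 10.95 CPM, had the steepest contrast. These 5 genes were higher in the progenitor class in 7 of 7 embryos. Rspo3 and Fgf4 went the other way in 7 of 7 embryos, with 193.0 ± 29.7 CPM in progenitors against 379.0 ± 71.2 CPM in presomitic cells for Rspo3, and 5.24 ± 2.09 against 12.6 ± 4.23 CPM for Fgf4. Each of these 7 contrasts had an exact sign-flip p of 0.0156, the smallest that 7 embryos allow, and 0.0179 after adjustment over the 8 genes. Wnt5a was higher in presomitic cells in 6 of 7 embryos (68.8 ± 6.53 against 42.3 ± 13.5 CPM, exact p 0.0312, adjusted p 0.0312).

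**Figure D1:**
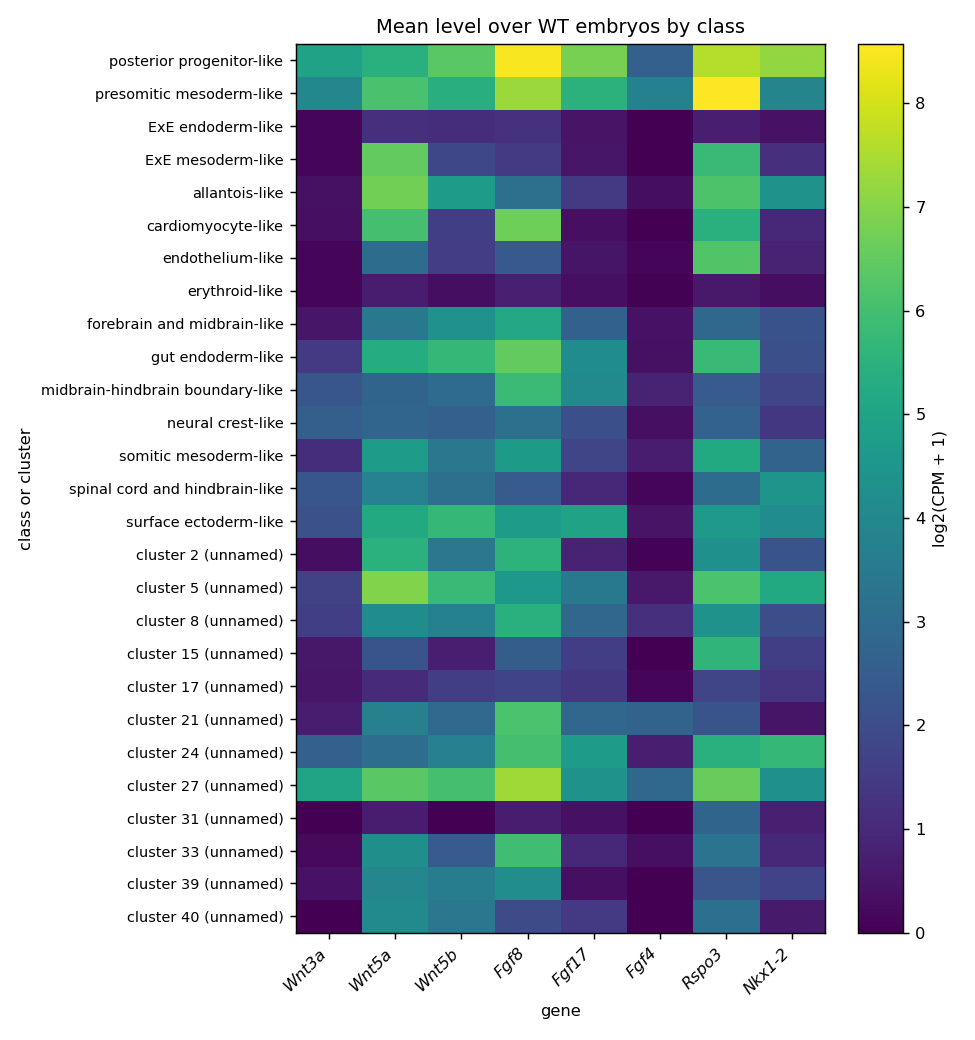
Mean level of each gene over WT embryos, as log2(CPM + 1) in colour, in 15 named classes and 12 unnamed clusters with at least 25 cells in 3 or more embryos. Within its own column Fgf8 is brightest in the progenitor class (359 CPM) and Rspo3 in the presomitic class (379.0 CPM), while Wnt5a is brighter in cluster 5, the allantois and the extraembryonic mesoderm than in either posterior row.

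Across the 27 classes and clusters compared in WT, the highest level lay in the progenitor class for Wnt5b, Fgf8, Fgf17 and Nkx1-2 and in the presomitic class for Rspo3 and Fgf4. The step from the highest class to the next held in 7 of 7 embryos for Fgf17, Rspo3 and Nkx1-2 (exact sign-flip p 0.0156, adjusted p 0.0417 for each). For Wnt5a the leading pair did not pass (exact p 0.156). For Wnt3a, Wnt5b, Fgf8 and Fgf4 the leading pair included the unnamed cluster 27, a group of shallow cells led by Gm42418 and Gm26917 that reached 25 cells in 4 embryos only, where this test cannot give a p below 0.125. Fgf8 was higher in progenitors than in that cluster in 4 of 4 embryos (mean log2 difference 1.78, SE 0.74, exact p 0.125). The cluster stood at 31.1 ± 14.5 CPM for Wnt3a, beside 29.9 CPM in progenitors (exact p 1.0). Outside the tail bud, Fgf8 averaged 101.0 ± 35.6 CPM in cardiomyocyte-like and 90.6 ± 34.4 CPM in gut endoderm-like cells, Rspo3 averaged 75.4 ± 20.3 CPM in endothelium-like cells, and Fgf17 averaged 29.3 ± 11.3 CPM in surface ectoderm-like cells. Nkx1-2 was next highest in cluster 24, led by Hes3, Crabp2 and Pax6, at 51.9 ± 33.9 CPM, then in cluster 5, led by Cdx4, Hoxd1 and Hoxd9, at 35.96 ± 11.02 CPM, and then in spinal cord and hindbrain-like cells at 20.7 ± 5.73 CPM.

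Wnt5a departed from the tail bud pattern. It was highest in cluster 5, an unnamed cluster led by Cdx4, Hoxd1, Hoxd9 and Foxf1 (121.1 ± 19.2 CPM, n = 7), followed by allantois-like cells (105.8 ± 35.7 CPM) and extraembryonic (ExE) mesoderm-like cells (89.3 ± 14.2 CPM), with no neighbouring pair in this order differing beyond its spread (adjusted p 0.25 or above). The pooled posterior class held 19.4% ± 1.87 (SD, n = 7) of the Wnt5a UMIs of a WT embryo, while it held 67.5% ± 8.31 for Wnt3a, 66.9% ± 3.66 for Fgf17, 70.7% ± 10.7 for Fgf4, 60.4% ± 6.24 for Nkx1-2, 59.6% ± 4.90 for Rspo3, 55.3% ± 3.80 for Fgf8 and 37.4% ± 4.51 for Wnt5b. In the same embryos this class made up 2.96% to 11.6% of the kept cells.

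The genes whose level over these 27 classes was most like that of each member are given as a description, since classes share libraries and depth. For Wnt3a they were Mfsd2a, Lemd1 and Fgf17 (Pearson r 0.88, 0.85 and 0.84 over the class means of log2(CPM + 1), among 12680 genes). For Fgf17 they were Snph, T and Wnt3a (r 0.84 each), for Fgf8 Il17rd, Etv1 and Gdf11 (r 0.84, 0.84 and 0.83), and for Fgf4 the Notch ligands Dll1 and Dll3 and Spock2 (r 0.83, 0.82 and 0.80). Nkx1-2 was most like Hoxb5os, Cdx1 and Hoxaas3 (r 0.91, 0.90 and 0.90), and Rspo3 most like Hoxb8, Gm45889 and Hoxc8 (r 0.85, 0.83 and 0.83). Wnt5a was most like Itgb5, Chic1 and Ptgfrn (r 0.93, 0.90 and 0.90), and Wnt5b like Greb1, Lingo1 and Chic1 (r 0.92, 0.87 and 0.87).

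The first question is what loss of each methyltransferase did to these genes over the whole embryo. In Dnmt1 KO 4 of the 8 fell, namely Fgf17, Fgf8, Wnt3a and Wnt5b, and none rose. Calls rest on edgeR's quasi-likelihood test, with p adjusted over all genes of the fit (below 0.01) and a log2 change of 1 or more in size. By this rule 14.1% of the 18742 genes tested were called, 6.01% lower and 8.13% higher. The median log2 fold change of the 8 was -1.11, against 0.01 over all genes. In Dnmt3a KO, where 0.213% of genes were called, and in Dnmt3b KO, where 1.75% were called, none of the 8 was called, by edgeR or by DESeq2. In such sums over whole embryos, fewer cells of a type and less RNA per cell cannot be told apart.

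Wnt3a, the canonical Wnt ligand of the tail bud, stood at 1.29, 0.63 and 1.11 CPM in Dnmt1 KO 1, 2 and 3, against 1.91 (lowest), 3.90 (median) and 5.74 CPM (highest) in WT. All 3 mutants lay below every WT embryo, and the log2 fold change was -1.74 (SE 0.29, adjusted p 0.000164). Wnt5b, a non-canonical ligand, stood at 7.70, 4.88 and 8.59 CPM against 11.9, 18.6 and 24.4 CPM, again without overlap (log2 fold change -1.23, SE 0.20, adjusted p 0.000159). With the Y-linked covariate its value was -1.07 (SE 0.29, adjusted p 0.012), which ended the call, and over cells of the embryo proper alone it was -0.84 (SE 0.15, adjusted p 0.000259), short of the fold limit. Wnt5a stood at 19.0, 12.2 and 26.1 CPM against 22.2, 31.5 and 38.0 CPM, where Dnmt1 KO 3 lay inside the WT range, and was not called (log2 fold change -0.61, SE 0.19, adjusted p 0.0189). Rspo3, the Wnt agonist, stood at 38.7, 29.3 and 65.4 CPM against 32.7, 53.4 and 67.0 CPM, with Dnmt1 KO 2 below every WT embryo and the other 2 inside the WT range (log2 fold change -0.14, SE 0.23, adjusted p 0.662, 95% interval -0.59 to 0.31).

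Among the 3 Fgf members of the set, Fgf17 showed the largest fall, with 2.34, 1.38 and 2.16 CPM in Dnmt1 KO 1, 2 and 3 against 7.61, 11.5 and 16.8 CPM (lowest, median and highest) in WT. The groups did not overlap, and the log2 fold change was -2.53 (SE 0.23, adjusted p 3.66e-07), a fall of 5.77-fold. Fgf8 stood at 11.2, 6.47 and 16.4 CPM against 25.3, 51.3 and 73.5 CPM, also without overlap (log2 fold change -2.06, SE 0.31, adjusted p 5.99e-05). Fgf4, which had 231 UMIs over the 3 Dnmt1 KO libraries, stood at 0.82, 0.37 and 1.31 CPM against 0.48, 1.53 and 2.40 CPM, and its groups overlapped (log2 fold change -0.68, SE 0.42, adjusted p 0.223). Nkx1-2, the transcription factor, stood at 6.40, 4.78 and 8.78 CPM against 5.27, 16 and 21.7 CPM. Only Dnmt1 KO 2 lay below the WT range, and the gene missed both limits (log2 fold change -0.99, SE 0.35, adjusted p 0.0352). Wnt3a, Wnt5b, Fgf8 and Fgf17 were thus the members with every Dnmt1 KO library below every WT library, a pattern shown by 16% of all genes tested.

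**Figure D2:**
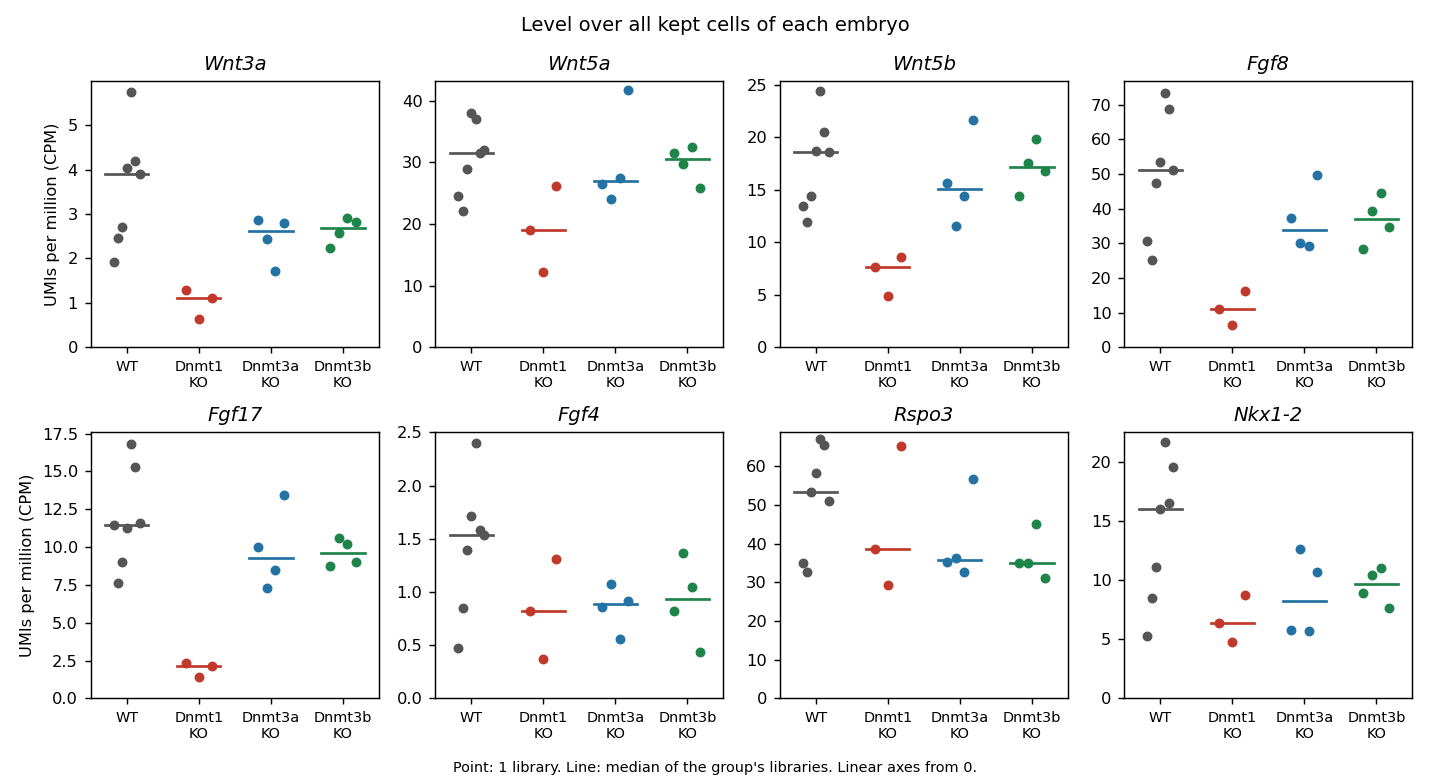
Level of each gene in CPM over all kept cells, with 1 point per library and the group median as a line, on linear axes from 0. The Dnmt1 KO points of Wnt3a, Wnt5b, Fgf8 and Fgf17 sit below all 7 WT points, and those of Rspo3 (29.3 to 65.4 CPM) sit within or near the WT range (32.7 to 67.0 CPM).

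In Dnmt3a KO all 8 genes had a negative log2 fold change that did not pass the test, from -0.05 for Wnt5a to -0.71 for Fgf4 (SE 0.17 and 0.37), with a median of -0.42 and the lowest adjusted p at 0.498. Wnt3a stood at 2.87, 2.44, 1.72 and 2.80 CPM in Dnmt3a KO 1, 2, 13 and 14, and Fgf8 at 37.4, 30.1, 29.3 and 49.7 CPM. For both genes the values lay mostly in the lower part of the WT range, with Dnmt3a KO 13 just below it for Wnt3a. Unadjusted p-values under 0.05 were given by 2 of the 8, Wnt3a and Nkx1-2, and by 9.63% of all genes. In Dnmt3b KO the log2 fold changes ran from -0.69 for Fgf4 to 0.003 for Wnt5b, with a median of -0.40, the lowest adjusted p at 0.289 and no member with an unadjusted p under 0.05, which 17.7% of all genes had. Wnt3a stood at 2.23, 2.57, 2.92 and 2.82 CPM in Dnmt3b KO 1, 2, 11 and 12, all inside the WT range. Without KO 11 and 12, 1 Dnmt3b KO embryo is left, whose spread is assumed to be that of the other groups, and the values ran from -0.62 for Rspo3 to -0.06 for Wnt5a.

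The mutants were also set against each other, without reference to the WT embryos that the comparisons above share. Between Dnmt1 KO and Dnmt3a KO, where 13.3% of genes were called and 6.39% were called lower in Dnmt1 KO, 4 of the 8 were lower in Dnmt1 KO: Fgf17 (log2 difference -2.24, SE 0.24), Fgf8 (-1.60, SE 0.32), Wnt3a (-1.22, SE 0.30) and Wnt5b (-1.08, SE 0.22). Between Dnmt1 KO and Dnmt3b KO, where 8.62% of genes were called and 4.89% were called lower, these 4 were lower too, with log2 differences of -2.22 for Fgf17 (SE 0.25), -1.65 for Fgf8 (SE 0.33), -1.35 for Wnt3a (SE 0.31) and -1.23 for Wnt5b (SE 0.23). Rspo3, Fgf4, Nkx1-2 and Wnt5a did not pass the test in either contrast, with Wnt5a at -0.56 (SE 0.21, adjusted p 0.0443) against Dnmt3a KO and -0.55 (SE 0.22, adjusted p 0.0697) against Dnmt3b KO. For Rspo3 the 95% interval of the difference was -0.26 to 0.73 against Dnmt3a KO and -0.19 to 0.88 against Dnmt3b KO. Between Dnmt3b KO and Dnmt3a KO, where 0.203% of genes were called, none of the 8 was, and all 8 log2 differences lay between -0.11 and 0.15 (SE 0.20 to 0.44).

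The shares of posterior cells were compared next, in 9 tests. Posterior progenitor-like cells made up 1.53% (lowest), 4.56% (median) and 6.21% (highest) of the kept cells in WT, while 0 cells had this label in Dnmt1 KO. The paper mapped cells to a reference atlas, with published embryos mutated by CRISPR included. It reports fewer neuromesodermal progenitors and more caudal epiblast in Dnmt1 KO, each as a relative share. The 0 is thus a count of the label made by the clustering here. A count of 0 among 1436, 2978 and 2176 kept cells allows shares of up to 0.209%, 0.101% and 0.138%, by counting error only. The log2 difference with 0.5 cells added was -7.37 (SE 0.40), with an exact permutation p of 0.00833, the smallest that 3 embryos against 7 allow, and an adjusted p of 0.075 over 9 tests. A lone share at that smallest p cannot go below 0.075 after this adjustment. Presomitic cells made up 3.83% to 7.35% of the cells in Dnmt1 KO and 1.43% to 5.41% in WT (exact permutation p 0.275, adjusted p 0.354). In Dnmt3a KO progenitor-like cells made up 0.913% to 3.58% and presomitic cells 0.865% to 3.09%, and in Dnmt3b KO they made up 2.71% to 4.85% and 0.713% to 3.18%. None of the 6 shares tested in these mutants had an exact permutation p under 0.05 after adjustment (adjusted p 0.15 or above). WT 2, the WT library with the lowest median UMIs per cell and the only one with Y-linked transcripts, had the lowest progenitor share of the 7. Without it the adjusted p was 0.0268 for progenitors in Dnmt1 KO, 0.0268 for both classes in Dnmt3a KO and 0.0306 for presomitic cells in Dnmt3b KO. In that setting no WT embryo has Y-linked transcripts, while all Dnmt1 KO and Dnmt3a KO embryos do. Sex and genotype therefore cannot be told apart there for these 2 mutants. In Dnmt3b KO 1 and 2 alone, progenitors made up 2.71% and 3.03% and presomitic cells 2.02% and 2.11%. The finding of cells with the presomitic label in Dnmt1 KO, and each posterior call in Dnmt1 KO below, depend on the resolution of the clustering. At a Leiden resolution of 1 in place of 2, the log2 difference in the pooled share went from -0.49 to -8.12 (exact permutation test, adjusted p 0.025), and Dnmt1 KO could not be fitted in that class.

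The pooled posterior class of Dnmt1 KO therefore held cells with the presomitic label alone, 83, 114 and 160 in KO 1, 2 and 3. Of these, 98.9% were in a cluster led by Mesp1, the mesoderm factor of early presomitic and cardiac precursors, whereas 99.2% of the presomitic cells of WT were in a cluster led by Dll3, Pcdh19, Dll1 and Tbx6. Markers of the class were at a lower level in the mutant cells, with Tbx6 at 25.7 CPM (mean, n = 3) against 90.7 CPM in WT, Dll1 at 27.3 against 122 CPM and Dll3 at 21.9 against 149 CPM. The 6 ExE mesoderm markers summed to 294 to 344 CPM in the pooled posterior class of Dnmt1 KO and to 68.1 to 89.0 CPM in that of WT, with none of them at 0. The 6 ExE ectoderm markers summed to 112 to 123 CPM against 16.1 to 30.4 CPM. Allantois markers summed to 24.5 to 38.7 CPM against 0.823 to 4.90 CPM, and endothelium markers to 35.8 to 43 CPM against 1.92 to 8.34 CPM, with 1 of the 6 at 0. Markers of pharyngeal mesoderm (114 to 133 against 26.7 to 66 CPM), cranial mesenchyme (167 to 184 against 62.6 to 114 CPM) and intermediate mesoderm (88.1 to 111 against 31.3 to 73 CPM) were higher as well. Other sets were lower in the mutant class without overlap, with the 8 somitic mesoderm markers at 35.1 to 57.1 against 151 to 279 CPM, the 6 notochord and node markers at 29.2 to 46.5 against 104 to 127 CPM, and the 9 spinal cord and hindbrain markers at 103 to 106 against 159 to 205 CPM. The part of this difference in cell make-up in the values below was not tested.

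In UMIs summed over the pooled posterior class and scaled to its total, 4 of the 8 genes fell in Dnmt1 KO: Fgf17, Fgf8, Nkx1-2 and Wnt3a. Over all 13141 genes tested in this class, 11.8% were called, 4.99% lower and 6.78% higher. The median log2 fold change of the 8 was -1.56, against -0.003 over all genes. None of the 8 was called in Dnmt3a KO, where 0.183% of genes were called, or in Dnmt3b KO, where 1.03% were called, by edgeR or by DESeq2. At an unadjusted p under 0.05 there were 0 and 2 members respectively, beside 11.8% and 23% of all genes, so the 2 of 8 in Dnmt3b KO are near the share over all genes.

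Fgf17 stood at 9.53, 8.57 and 6.62 CPM in the posterior cells of Dnmt1 KO 1, 2 and 3, against 50.5, 75.4 and 118 CPM (lowest, median and highest) in WT. The log2 fold change was -3.21 (SE 0.33, adjusted p 3.72e-07). Fgf8 stood at 52.6, 42.4 and 37.6 CPM against 193.6, 254 and 333 CPM (log2 fold change -2.48, SE 0.21, adjusted p 2.57e-08). In both genes the highest mutant value was far under the lowest WT value. Nkx1-2 stood at 17.2, 6.99 and 12.1 CPM against 50.5, 67.1 and 126 CPM (log2 fold change -2.60, SE 0.27, adjusted p 2.92e-07), and Wnt3a at 9.34, 3.61 and 2.42 CPM against 16.4, 20.6 and 28.3 CPM (log2 fold change -2.13, SE 0.35, adjusted p 8.87e-05). Wnt5b stood at 35.3, 32.3 and 23.3 CPM against 49.8, 63.4 and 72.5 CPM. Its groups did not overlap either, and its log2 value of -0.99 (SE 0.20, adjusted p 0.000862) lay just short of the fold limit. With it, 5 of the 8 genes had every Dnmt1 KO library below every WT library, against 17.5% of all genes tested in this class.

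The other 3 ligands did not pass the test. Rspo3 stood at 251, 284 and 234 CPM in posterior cells of Dnmt1 KO against 228, 284 and 344 CPM in WT, so that all 3 mutants lay inside the WT range (log2 fold change -0.14, SE 0.17, adjusted p 0.584, 95% interval -0.48 to 0.20). Wnt5a stood at 68.4, 62.9 and 62.1 CPM against 46.5, 54.8 and 69.6 CPM, towards the upper end of the WT range (log2 fold change 0.23, SE 0.19, adjusted p 0.377, 95% interval -0.14 to 0.61). Fgf4 stood at 3.05, 6.99 and 5.67 CPM against 4.01, 8.91 and 14.3 CPM, with overlap (log2 fold change -0.71, SE 0.39, adjusted p 0.175). In this pooled comparison WT holds both classes and Dnmt1 KO cells with the presomitic label alone. In WT, Wnt3a, Wnt5b, Fgf8, Fgf17 and Nkx1-2 were higher in progenitors and Rspo3 and Fgf4 in presomitic cells, so for each of these genes cell make-up and level within a class cannot be told apart in the pooled values.

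Since no progenitor-like cells were found in Dnmt1 KO, the comparison was repeated within the presomitic class, in which 9.49% of 12000 genes were called and 3.72% were called lower. Here 3 of the 8 fell: Fgf17, Fgf8 and Wnt3a. Fgf8 ran from 110.0 to 192.6 CPM in WT presomitic cells, above the 37.6 to 52.6 CPM of Dnmt1 KO (log2 fold change -1.77, SE 0.18, adjusted p 2.6e-07), and Fgf17 ran from 31.1 to 71.2 CPM, above 6.62 to 9.53 CPM (log2 fold change -2.44, SE 0.36, adjusted p 2.63e-05). Wnt3a ran from 11.4 to 22.6 CPM, above 2.42 to 9.34 CPM (log2 fold change -1.52, SE 0.36, adjusted p 0.00319). The Wnt3a call ended with the Y-linked covariate (-1.05, SE 0.48, adjusted p 0.149). Nkx1-2 ran from 1.53 to 27.9 CPM in WT, a range that held all 3 mutant values (log2 fold change -0.16, SE 0.53, adjusted p 0.864). The Nkx1-2 call of the pooled class was thus not made within the presomitic class, where mutant and WT cells still sat in different clusters, led by Mesp1 and by Dll3. Rspo3 stood at 251, 284 and 234 CPM against 265, 382 and 461 CPM (lowest, median and highest) in WT. Only Dnmt1 KO 2 lay inside the WT range, and the gene missed both limits (log2 fold change -0.53, SE 0.16, adjusted p 0.0159). Fgf4 (-1.18, SE 0.38, adjusted p 0.0228), Wnt5b (-0.43, SE 0.19, adjusted p 0.0951) and Wnt5a (-0.06, SE 0.14, adjusted p 0.787) were not called. In this class none of the 8 was called in Dnmt3a KO, where 0.1% of genes were, or in Dnmt3b KO, where 0.65% were.

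**Figure D3:**
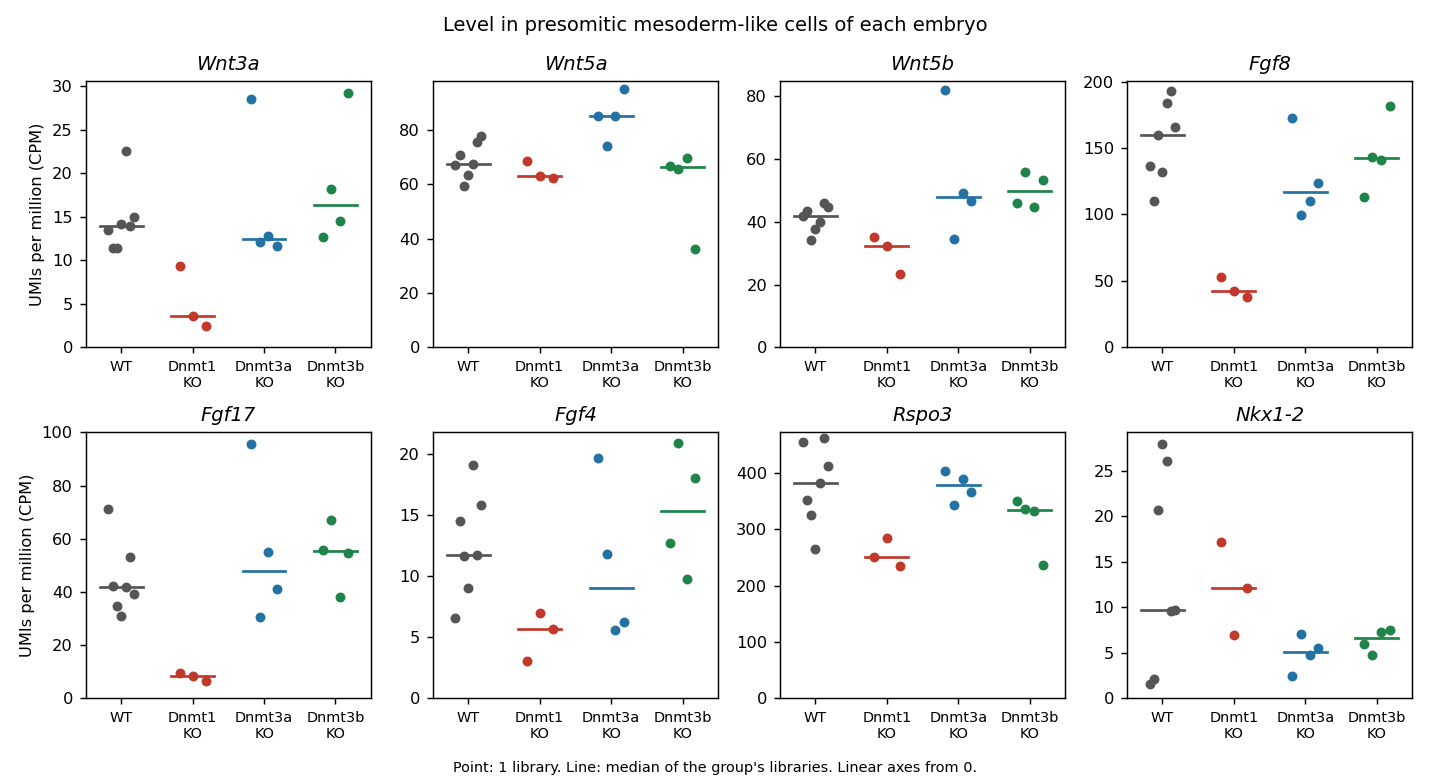
Level of each gene in CPM in presomitic mesoderm-like cells, with 1 point per library and the group median as a line, on linear axes from 0. Dnmt1 KO libraries lie below all WT libraries for Wnt3a, Fgf8 and Fgf17, whereas for Nkx1-2 the Dnmt1 KO values (6.99 to 17.2 CPM) lie inside the WT range (1.53 to 27.9 CPM).

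In the posterior cells of the other mutants no member passed the test. In Dnmt3a KO, Fgf8 stood at 351, 160, 245 and 256 CPM and Wnt3a at 35.5, 18.6, 15.9 and 17.1 CPM in KO 1, 2, 13 and 14, with Dnmt3a KO 1 above and Dnmt3a KO 2 below the WT range for Fgf8. The 8 log2 fold changes ran from -0.49 for Fgf4 (SE 0.32) to 0.32 for Wnt5a (SE 0.17), and the lowest adjusted p was 0.473. For Fgf8 the 95% interval was -0.30 to 0.33. In Dnmt3b KO the log2 fold changes ran from -0.48 for Rspo3 (SE 0.17, adjusted p 0.113) to 0.41 for Wnt5b (SE 0.18, adjusted p 0.177). Rspo3 stood at 245, 226, 237 and 136 CPM in Dnmt3b KO 1, 2, 11 and 12, with KO 12 and KO 2 below the WT minimum of 228 CPM. Without KO 11 and 12 the values were -0.30 (SE 0.22) for Rspo3 and 0.08 (SE 0.27) for Wnt5b, with the spread of the lone embryo again taken from the other groups. Whether a mutant changed a gene more in one posterior class than in the other was tested for 6 genes (Wnt3a, Wnt5a, Wnt5b, Fgf8, Fgf17 and Rspo3) in Dnmt3a KO and Dnmt3b KO, and not for Fgf4 and Nkx1-2. None of these 12 tests passed (lowest adjusted p 0.273, exact permutation tests). For Dnmt3b KO the smallest exact permutation p, 0.00833 for 3 embryos against 7, is too large for a lone gene to pass 0.05 after adjustment over 12.

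Between mutants, the posterior cells of Dnmt1 KO had 5 of the 8 genes lower than those of Dnmt3a KO (12.3% of genes called, 5.73% lower) and 5 lower than those of Dnmt3b KO (9.86% called, 4.78% lower). In both contrasts these were Fgf17, Fgf8, Nkx1-2, Wnt3a and Wnt5b. By label, Dnmt3a KO and Dnmt3b KO hold progenitor-like cells in this class and Dnmt1 KO does not. Within presomitic cells the mean of Nkx1-2 was 12.1 ± 5.08 CPM in Dnmt1 KO (SD, n = 3), 4.94 ± 1.95 CPM in Dnmt3a KO (n = 4) and 6.68 ± 1.25 CPM in Dnmt3b KO (n = 3), and the mutants were not tested against each other there. The log2 differences against Dnmt3a KO in the pooled class were -3.47 (SE 0.35), -2.50 (SE 0.22), -2.32 (SE 0.28), -2.14 (SE 0.37) and -1.31 (SE 0.22) in that order. Rspo3 differed by -0.12 (SE 0.19) from Dnmt3a KO and by 0.35 (SE 0.20) from Dnmt3b KO, neither past the test. None of the 8 was called between Dnmt3b KO and Dnmt3a KO, where 0.297% of genes were.

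**Figure D4:**
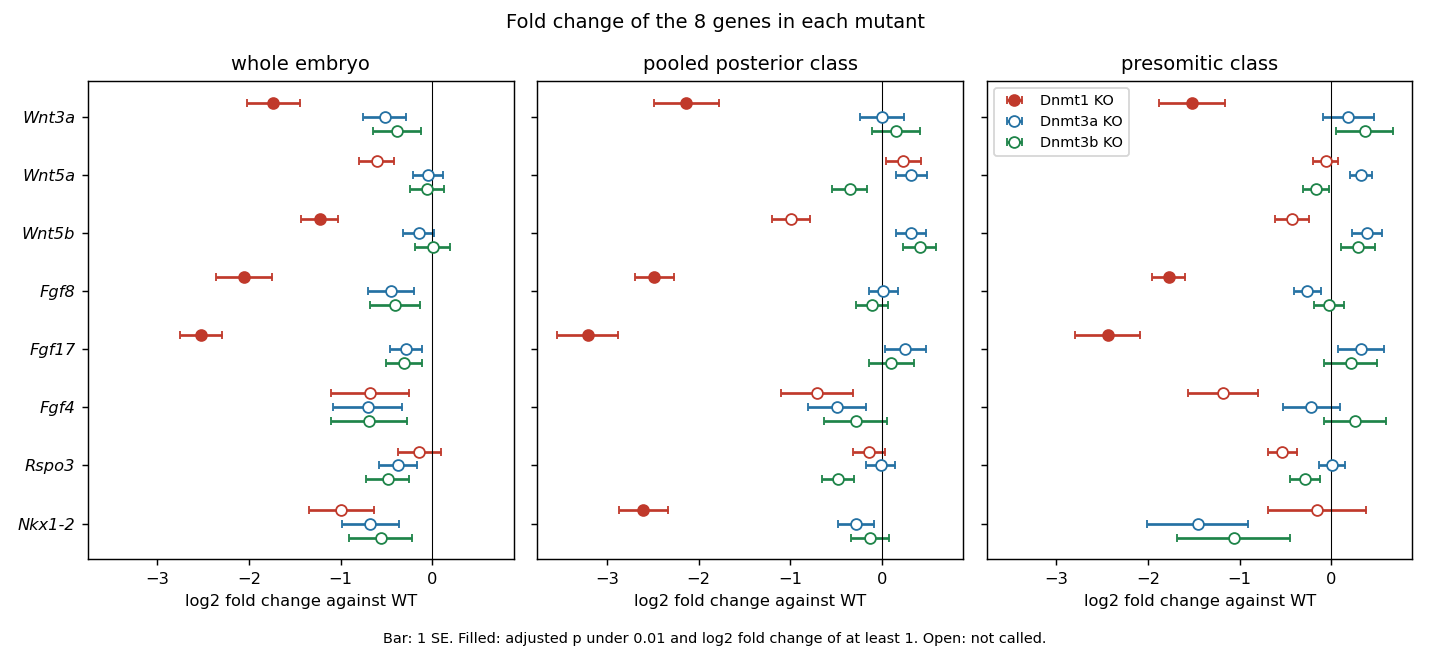
Log2 fold change of each gene against WT in the 3 mutants, for the whole embryo, the pooled posterior class and the presomitic class, with bars of 1 SE and filled points for called genes. The Dnmt1 KO points of Fgf17 (-2.53, -3.21 and -2.44), Fgf8 (-2.06, -2.48 and -1.77) and Wnt3a (-1.74, -2.13 and -1.52) are filled in all 3 panels, and no Dnmt3a KO or Dnmt3b KO point is filled.

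The share of cells in which a transcript was caught gave a depth-matched view, after each cell was thinned to 1500 UMIs. Fgf8 was seen in 26.4% ± 5.03 (SD, n = 7) of WT posterior cells and in 6.11% ± 2.34 (n = 3) of those of Dnmt1 KO, Fgf17 in 9.91% ± 3.62 and 0.292% ± 0.506, Nkx1-2 in 11.6% ± 3.45 and 1.93% ± 0.912, and Wnt3a in 5.19% ± 1.2 and 1.89% ± 1.10. For Rspo3 the shares were 32.3% ± 3.28 and 30% ± 5.93, for Wnt5a 8.54% ± 2.38 and 9.51% ± 1.95, and for Wnt5b 8.19% ± 2.22 and 5.02% ± 2.96. Fgf4 was seen in 1.28% ± 0.573 of WT posterior cells and in none of the 357 of Dnmt1 KO, which allows a share of up to 0.84%. Since WT holds both classes here, the presomitic cells of WT are given as well, although they and the presomitic cells of Dnmt1 KO lay in different clusters. Among them Rspo3 was seen in 41.5% ± 3.62 (36.3% to 46.6%), above the 24.1% to 36% of the 3 Dnmt1 KO embryos. Fgf8 was seen in 19.3% ± 4.66 and Fgf17 in 6.54% ± 2.34 of them, also without overlap with Dnmt1 KO. Fgf4 was seen in 1.95% ± 1.05 of the WT presomitic cells (0.694% to 3.92%) and in none of those of Dnmt1 KO. For Wnt3a (3.54% ± 2.41), Wnt5a (12.2% ± 2.49), Wnt5b (5.72% ± 1.26) and Nkx1-2 (1.62% ± 1.38) the groups overlapped. These shares were not tested. In WT erythroid-like cells, which should lack these ligands, the mean shares were 0.131% or lower for all 8 genes, at a median depth of 9736 to 67744 UMIs per cell against 26890 to 58386 in WT posterior cells and 36271.5 to 58452 in those of Dnmt1 KO. The background in Dnmt1 KO is less certain, since 1 library held enough such cells (45, at a median depth of 3011 UMIs). Rspo3 was seen in 6.67% of them, and 0 of these cells for each other member allows a share of up to 6.67%. Without thinning, Fgf8 was seen in 86.5% of WT and 59.4% of Dnmt1 KO posterior cells, and Fgf17 in 63.0% and 23.6%. Fgf4 was then seen in 18.5% ± 5.16 and 13.9% ± 4.82, so its count of 0 after thinning does not mean that it was absent from Dnmt1 KO.

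In Dnmt1 KO a large part of the remaining UMIs of most of the 8 genes came from an unnamed cluster that the other groups nearly lacked. It was led by the pluripotency factor Pou5f1 and by Pim2, held 9.37% to 17.1% of the cells of a Dnmt1 KO embryo and at most 0.272% of those of any other, and could not be named by its markers. There Cdx1 averaged 152 CPM, within the 96.7 to 432 CPM of WT progenitor-like cells, while Cdx4 averaged 41.7 CPM, against a WT progenitor mean of 440 CPM, and T 30.7 CPM against 132 CPM. It held 73.5% of the Nkx1-2 UMIs of a Dnmt1 KO embryo (mean of 3, range 63.8% to 83.3%), 64.6% of those of Wnt3a, 64.2% of Fgf17, 47.2% of Fgf4, 44.1% of Fgf8 and 41.8% of Wnt5b, but 14.2% of those of Wnt5a and 12.4% of those of Rspo3. Within this cluster, in KO 1, 2 and 3, Nkx1-2 stood at 29.3, 49.7 and 26.3 CPM, Fgf8 at 36.0, 46.2 and 18.2 CPM and Wnt3a at 4.87, 5.96 and 3.01 CPM. These values lay below the lowest WT progenitor values of 94.9 CPM for Nkx1-2, 275 CPM for Fgf8 and 19.0 CPM for Wnt3a. When this cluster was added to the pooled posterior class, an alternative chosen after seeing the data, 7 of the 8 genes were called lower, with Rspo3 at -1.41 (SE 0.19), Fgf4 at -1.30 (SE 0.35) and Wnt5b at -1.29 (SE 0.20), and Wnt5a as the exception. The share of all genes called in that fit is not given here, so the count alone does not set these genes apart.

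**Figure D5:**
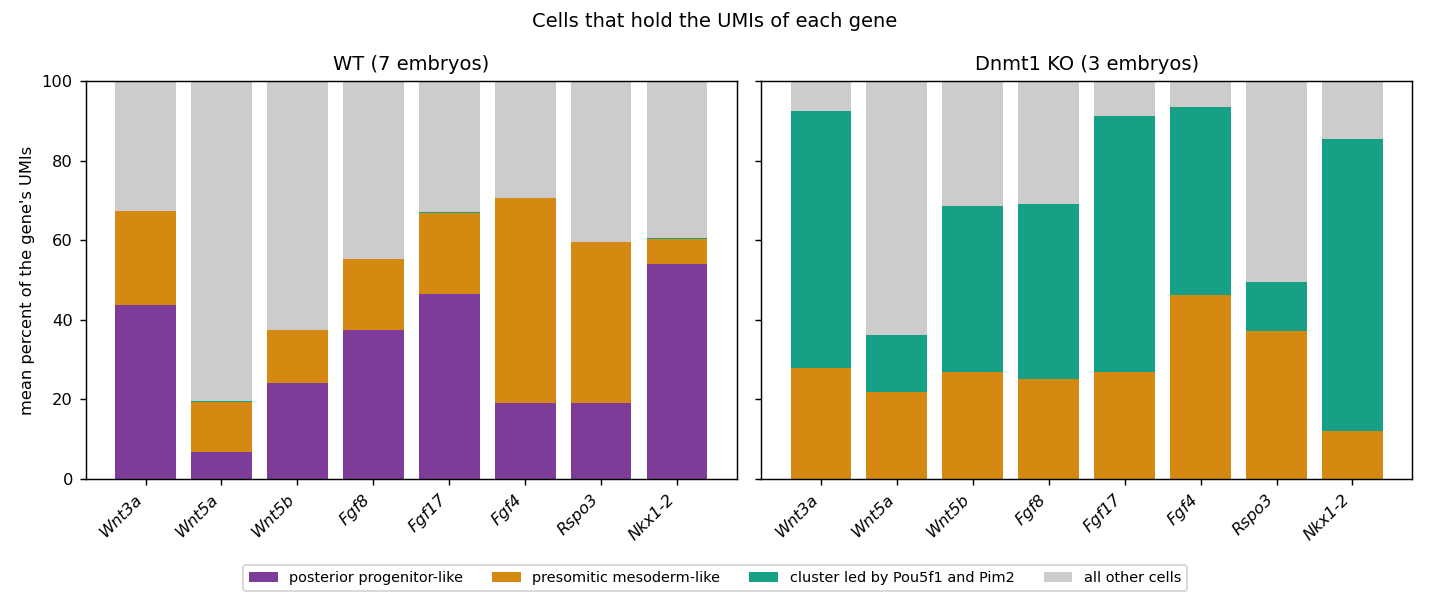
Mean percent of the UMIs of each gene that came from posterior progenitor-like cells, presomitic cells, the cluster led by Pou5f1 and Pim2 and all other cells, over 7 WT and 3 Dnmt1 KO embryos. Cells with the progenitor label hold 43.8% for Wnt3a and 54.1% for Nkx1-2 in WT. Dnmt1 KO has no cells with this label, and its cluster led by Pou5f1 holds 64.6% and 73.5%.

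Class by class, 5 classes had enough cells for a test of Dnmt1 KO, with 27 pairs of a gene and a class. Of these, 9 were called, 6 lower and 3 higher, while 7.75% of all pairs of a gene and a class were called, 3.14% lower and 4.6% higher. Beside the presomitic class, the lower calls were in gut endoderm-like cells (30, 41 and 35 cells in KO 1, 2 and 3). There Fgf8 stood at 9.76, 3.53 and 25.2 CPM against 33.9 to 141.5 CPM in WT, without overlap (log2 fold change -2.67, SE 0.47, adjusted p 0.00033). Fgf17 stood at 2.79, 1.77 and 1.09 CPM against 5.84 to 30.3 CPM (-2.95, SE 0.70, adjusted p 0.00442), and Wnt5a at 18.6, 12.4 and 14.8 CPM against 25.6 to 49.8 CPM (-1.19, SE 0.31, adjusted p 0.00816). With the Y-linked covariate these 3 calls ended (adjusted p 0.0217, 0.0425 and 0.079). With at least 50 cells asked of each embryo, this class could not be tested.

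In ExE mesoderm-like cells of Dnmt1 KO, 2 of the 8 genes were higher. Nkx1-2 stood at 4.03, 4.44 and 5.53 CPM in KO 1, 2 and 3, against 0.71 to 1.74 CPM in WT (log2 fold change 1.92, SE 0.39, adjusted p 0.000832), and Wnt5b at 5.18, 7.28 and 5.22 CPM against 1.45 to 4.15 CPM (1.17, SE 0.27, adjusted p 0.0022). The groups did not overlap for either gene, at levels far under those of the posterior cells. Mutant and WT cells of this class lay largely in different clusters, with Dnmt1 KO giving 95.03% of the reference cells of a cluster led by Tdo2, Pmp22 and Ahnak, 0.21% and 0.27% of those led by Lum and by Postn and 20.68% of a shallow cluster led by Acta2, and the part of this in the values was not tested. The Wnt5b call ended with the Y-linked covariate (1.33, SE 0.40, adjusted p 0.0187). The 9th call, Rspo3 in an unnamed cluster, is given among the other observations. In Dnmt3a KO and Dnmt3b KO, 133 and 125 pairs were tested over 25 and 24 classes, and none was called, while 0.0842% and 0.546% of all pairs of a gene and a class were. At an unadjusted p under 0.05 there were 16 and 8 such pairs, beside 9.48% and 13.3% of all pairs of a gene and a class.

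The other genes of both pathways were taken from lists of known ligands, receptors, antagonists, targets and feedback genes. Their posterior values in Dnmt1 KO, here and in the paragraphs on lists that follow, are of the pooled posterior class. WT holds progenitor-like cells there and Dnmt1 KO has none by label, so cell make-up and level within a class cannot be told apart in them. Fgf feedback genes, which MAP kinase signalling induces and which mostly dampen it, fell in Dnmt1 KO in 5 of 10 members over the whole embryo and none rose (median log2 fold change -1.08), beside 6.01% of all genes called lower. Spry1 was at -1.97 (SE 0.17), the phosphatase Dusp6 at -1.56 (SE 0.19), Spry4 at -1.54 (SE 0.26) and Spry2 at -1.53 (SE 0.26), with the Ets factor Etv4 at -1.31 (SE 0.22). In the pooled posterior class, where 4.99% of all genes were called lower, 5 of 10 fell as well (median -1.03), Etv4 by 2.92 on the log2 scale (SE 0.26), Spry1 by 2.62 (SE 0.22), Spry4 by 2.57 (SE 0.27), Spry2 by 1.60 (SE 0.27) and Dusp6 by 1.21 (SE 0.15). Of the 6 Wnt targets, 1 fell in each fit (medians -0.76 over the whole embryo and -0.29 in posterior cells). It was Sp5, a transcription factor, at -1.62 (SE 0.25) and -2.24 (SE 0.26). Axin2, the feedback inhibitor of beta-catenin, was at -0.54 (SE 0.25, adjusted p 0.0913) and -0.31 (SE 0.19, adjusted p 0.232), and the cofactor Lef1 at -0.99 (SE 0.24, adjusted p 0.00382, short of the fold limit) and -0.27 (SE 0.15, adjusted p 0.182). Over all genes the medians were 0.01 and -0.003.

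Tail bud transcription factors fell in 5 of 8 cases in both fits (medians -1.22 and -1.09), beside 6.01% and 4.99% of all genes called lower. All 8 also served to name the posterior classes, and this list was not left out of the clustering. Their values in posterior cells are therefore a description and no independent result. Sp8 was at -1.87 (SE 0.26) over the whole embryo and -3.05 (SE 0.16) in posterior cells, Hes7, the oscillating repressor of the segmentation clock, at -2.32 (SE 0.21) and -2.49 (SE 0.30), Cdx4 at -1.90 (SE 0.27) and -1.09 (SE 0.16), and T, the Brachyury factor of axial mesoderm, at -1.05 (SE 0.24) and -1.56 (SE 0.17). Of the retinoic acid enzymes, Cyp26a1, which degrades retinoic acid in the tail bud, was at -3.24 (SE 0.53, adjusted p 8.15e-05) in posterior cells and -0.16 (SE 0.26, adjusted p 0.663) over the whole embryo, and Aldh1a2, which makes it in the trunk mesoderm, was not called in either (0.75, SE 0.39, adjusted p 0.144, and -0.98, SE 0.35, adjusted p 0.0335).

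Other Wnt ligands moved in both directions in Dnmt1 KO, with 4 of 16 lower and 1 higher over the whole embryo (median -0.38). The counts of this and the following lists stand beside 6.01% of all genes lower and 8.13% higher over the whole embryo, and 4.99% lower and 6.78% higher in posterior cells, and the single higher Wnt ligand is near that share. Wnt1, a ligand of the dorsal neural tube, was at -4.50 (SE 0.53), Wnt7a at -2.32 (SE 0.55), Wnt8b at -1.85 (SE 0.30) and Wnt7b at 3.24 (SE 0.40). In posterior cells 3 of 10 were higher and 1 lower, with Wnt2 at 3.87 (SE 0.36), Wnt4 at 2.28 (SE 0.24) and Wnt3 at 1.93 (SE 0.49) against Wnt10a at -2.35 (SE 0.60). Among the other Fgf ligands 5 of 17 were lower and 2 higher over the whole embryo (median -0.41), with Fgf18 at -2.90 (SE 0.29), Fgf9 at -2.62 (SE 0.39) and Fgf14 at -1.98 (SE 0.48), and with Fgf20, which had 0 UMIs in all 3 Dnmt1 KO libraries, so that its fitted value is no measure of size, against Fgf6 at 1.94 (SE 0.43) and Fgf5, a ligand of the epiblast, at 1.76 (SE 0.42). The R-spondin list, which also holds the Lgr receptors and Rnf43, had 3 of 8 lower (median -0.12), with Rspo2 at -2.25 (SE 0.51), Rspo4 at -1.18 (SE 0.26) and the receptor-degrading ligase Rnf43 at -1.12 (SE 0.25). Antagonists had 4 of 14 lower and 2 higher (median -0.43), with Dkk2 at -2.68 (SE 0.49) and Dkk4 at 3.13 (SE 0.48). Frizzled and co-receptor genes had 2 of 16 lower (median -0.36), Fzd9 at -1.88 (SE 0.25) and Fzd2 at -1.35 (SE 0.22). In posterior cells, Fgf9 (-4.37, SE 0.52) and Fgf18 (-2.98, SE 0.42) were lower and Fgf10 (2.44, SE 0.41) higher among 8 Fgf ligands, the secreted antagonist Wif1 was at -3.46 (SE 0.92) with 4 of 11 antagonists lower and 1 higher, and Fzd4 was at 2.41 (SE 0.30) against Fzd9 at -2.22 (SE 0.52) and Fzd2 at -1.65 (SE 0.13). Lgr5, an R-spondin receptor, was at 1.35 (SE 0.33). Over the whole embryo, none of 6 Fgf receptors was called (median 0.42) and none of 20 housekeeping genes (median -0.001). In posterior cells 1 of 4 Fgf receptors tested was lower (median -0.25), Fgfrl1, which lacks the kinase domain, at -1.375 (SE 0.30). In Dnmt3a KO and Dnmt3b KO none of the genes of these lists was called in either fit.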

How the data were processed

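The deposited counts were UMI counts per gene and barcode, made by the authors with Cell Ranger on mm10; file headers name version 3.1.0 for 17 libraries and 5.0.0 for 1, and 4 libraries were mapped to a combined human and mouse reference, of which mouse genes were used. Kept cells had 1500 UMIs or more, at most 30% mitochondrial and 35% ribosomal protein UMIs, and after removal of 7646 predicted doublets. Clustering used 2500 variable genes, 50 components, 30 neighbours and Leiden resolution 2 (leidenalg 0.10.2), which gave 47 clusters, 33 of them named into 18 classes rebuilt from markers, so shares can differ from those of the study. UMIs were summed per embryo, over all cells or per class (at least 25 cells in at least 3 embryos), and all 4 groups entered 1 edgeR quasi-likelihood fit (version 4.0.16, R 4.3.3), scaled by TMM, after its low-count filter, with Benjamini-Hochberg adjustment over all genes. Per-class fits were adjusted within a class. DESeq2 1.42.0 was an alternative. The edgeR test was also run on simulated counts, and the outcome is not given here. Shares of cells were compared by two-sided exact permutation tests and levels between classes by exact sign-flip tests. Each embryo is 1 replicate. The 95% intervals of log2 fold changes come from the SE of the fit, which takes in the spread between embryos. Limits at a count of 0 cover counting error only, with 3 counts as the limit. Genes named beside the 8 were the targeted methyltransferases, the called genes of each pathway list (up to 4 with the largest change), a set of 8 pathway readouts and the 3 genes most like each member. The members and lists were chosen with earlier results of these data known. The comparison of both posterior classes within WT was not among the planned tests, and the fit with the cluster led by Pou5f1 and Pim2 was added after seeing the data.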

Additional observations from a re-analysis of the deposited data

Results flagged for a closer look

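Of 70 groups of 4 to 10 libraries tested for a library far from the rest, 5 had one, where chance gives about 1 in 20. The gap of the extreme library to its nearest neighbour is given as a share of the range of the group. Dnmt3a KO 1 was high for Wnt3a in presomitic cells (28.6 CPM, gap 0.933) and in the pooled posterior class (35.5 CPM, gap 0.86). WT 5 was high for Wnt3a in presomitic cells (22.6 CPM, gap 0.676). WT 1 was high for Wnt5a in posterior progenitor-like cells (72.0 CPM, gap 0.747). Dnmt3a KO 14 was high for Rspo3 over the whole embryo (56.7 CPM, gap 0.849).

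In Dnmt1 KO, 3 genes went in opposite directions in a pair of classes, with all 3 libraries above every WT library in one class and below every WT library in the other. Wnt5b was above WT in ExE mesoderm-like cells and below it in the pooled posterior class, and its log2 changes differed by 1.96. Nkx1-2 did the same, with a difference of 3.93. Dnmt1 KO had no progenitor-like cells in the pooled class, and within presomitic cells the groups overlapped for both genes (log2 fold changes of -0.43 for Wnt5b and -0.16 for Nkx1-2). Rspo3 was above WT in cluster 31, led by Plek, Spi1 and Fcer1g, and below it in gut endoderm-like cells, with a difference of 5.68. These differences were not tested. Only the pooled posterior class, gut endoderm-like cells, ExE mesoderm-like cells and cluster 31 were looked at. The share of all genes that meet this rule is not given here, so the count of 3 does not set these genes apart.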

How the results depend on the processing

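Numbers of calls among the 8 genes in Dnmt1 KO moved under a few settings. Over the whole embryo the replicate block left 2 calls of 4, with Wnt3a at -1.26 (adjusted p 0.0141) and Wnt5b at -0.95 (adjusted p 0.00864) on the log2 scale. By their labels, samples of a block share only a number. The deviations of 13 same-numbered pairs correlated from -0.48 to 0.53 and those of the 104 other pairs from -0.54 to 0.64. These ranges overlap and do not decide whether same-numbered embryos share a litter or batch. In the pooled posterior class the count of 4 became 7 with the cluster led by Pou5f1 and Pim2, and 5, with Wnt5b called, with the replicate block, with no low-count filter, without Dnmt3b KO 11 and 12, and at Leiden resolution 3. The shares of all genes called under these settings are not given here, so the counts alone do not set the 8 genes apart. By class, 9 calls became 5 with at least 50 cells and 5 with the Y-linked covariate. Leaving out 1 library at a time gave 4 to 5 calls over the whole embryo and 4 to 5 in the posterior class. The whole-embryo count was 5 without WT 1, where Nkx1-2 was called (-1.12, adjusted p 0.00848). In Dnmt3a KO and Dnmt3b KO it gave 0 in both, as did the other settings run. The log2 difference in progenitor share in Dnmt1 KO was -6.37 with 1 cell added. At Leiden resolution 1 the pooled share differed by -8.12 in Dnmt1 KO (adjusted p 0.025) and by -0.0928 in Dnmt3b KO, and Dnmt1 KO could not be fitted in that class. Without 1 library the share differences in Dnmt1 KO, Dnmt3a KO and Dnmt3b KO ranged from -7.64 to -7.12, -1.08 to -0.42 and -0.33 to 0.0081 for progenitor-like cells, from 0.29 to 0.78, -1.26 to -0.65 and -1.64 to -0.57 for presomitic cells, and from -0.72 to -0.24, -1.17 to -0.53 and -0.76 to -0.29 for the pooled class. Without WT 2, an adjusted p of 0.0268 to 0.0306 was reached for the progenitor and pooled shares in Dnmt1 KO, all 3 shares in Dnmt3a KO and the presomitic and pooled shares in Dnmt3b KO. That setting leaves no WT embryo with Y-linked transcripts. No called result changed direction, but the progenitor share in Dnmt3b KO, which was not called, went from -0.10 to 0.0081 without WT 6. The cause of these shifts was not tested. Depth limits Wnt3a and Fgf4, each with 16 UMIs in the posterior cells of 1 Dnmt1 KO library, which is not the same library for both genes.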

Other observations

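Rspo3 was higher in Dnmt1 KO in cluster 31, an unnamed cluster led by the blood cell genes Plek, Spi1 and Fcer1g, although it did not pass the test over the whole embryo or in posterior cells. It stood at 86.5, 92.6 and 102.9 CPM in Dnmt1 KO 1, 2 and 3, against 3.90, 1.94, 8.62 and 8.51 CPM in the 4 WT embryos with at least 25 such cells. The groups did not overlap (log2 fold change 4.24, SE 0.36, adjusted p 1.49e-05 in edgeR, and 5.44 with the Y-linked covariate). These 4 WT embryos held 26 to 70 such cells each, and with at least 50 cells asked of each embryo the cluster could not be tested. Among the genes of the cluster looked at, Plek, Spi1, Fcer1g, Rab27b and Itga2b were lower in the mutant cells without overlap. Plek stood at 17.9, 14.9 and 17.7 CPM in Dnmt1 KO and at 47.9 to 176.7 CPM in WT, and Spi1, a myeloid transcription factor, at 16, 16.4 and 23.9 CPM against 40.2 to 100.3 CPM. Fcer1g stood at 10.41 to 36.55 CPM in Dnmt1 KO against 66.78 to 186.2 CPM in WT. Rab27b stood at 20.26 to 25.45 CPM against 74.47 to 284.3 CPM, and Itga2b at 45.28 to 54.29 CPM against 65.35 to 137.7 CPM. Laptm5 stood at 42.4, 40.9 and 38.2 CPM against 39.5 to 67.4 CPM, where the groups overlapped. The part of this difference in cell make-up in the Rspo3 value was not tested.

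With the Y-linked covariate Fgf17 was also called lower in ExE endoderm-like cells of Dnmt1 KO (log2 fold change -4.40, SE 0.91, adjusted p 0.00488 in edgeR), a call absent from the fit without it. In WT, Fgf17 averaged 0.364 CPM in this class (0.106 to 1.37 CPM), beside 0.287 CPM in erythroid-like cells. The call thus rests on values near the floor. Dnmt1 KO gave 0.21%, 7.19%, 19.75% and 98.45% of the reference cells of the 4 clusters of this class.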
